A study of Danio rerio with 4 samples.

Results

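The far part of zebrafish chromosome 4, from position 30 Mb to the last peak summit at 78035953 on the GRCz11 assembly, held the longest runs of sparse 1 Mb windows on any chromosome in the map of anti-GFP enrichment from this study. All summits on chromosome 4 above position 30000000 were taken, which gave 1782 of the 163838 summits in the whole list, in 1262 peak regions. A summit is a single base at which enrichment is locally highest within a peak region, and a region can hold several. The members were chosen by position only, but the 30 Mb boundary was set with the density of summits in view. The low density is therefore a description and carries no test. Long gaps, empty windows, lone regions and windows without strong summits become more common as density falls, so they are not independent results. The position of the centromere was not looked up, and whether this stretch is exactly the long arm was not tested. It is called the far part of chromosome 4 below.

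The study asked where Gfi1aa binds in the genome of zebrafish embryos. Whole embryos at 15 hours post fertilisation were cross-linked, and their chromatin was sheared to 200 to 700 bp. The anti-GFP group consisted of 2 libraries precipitated with an antibody against GFP, and the input group of 2 libraries of the same stage and tissue made without an antibody. The labels name no genotype, strain or transgene, do not describe the GFP tag of Gfi1aa, and give no antibody control from embryos without GFP. Whether the libraries came from separate clutches is not stated. The processed data are 1 list of summits for the whole series, so there is no value per library and no error between replicates, and the depth of sequencing behind the list is unknown. Each summit has a score, the authors' own value, read here as −log10 of a q-value. A higher score means stronger evidence of enrichment, and it rises with depth as well as with enrichment. Spreads below are spreads between the 24 other chromosomes.

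Gfi1aa belongs to the GFI1 family of zinc finger repressors, which act in blood cell development. These proteins recruit the histone demethylase Lsd1 through a short domain at their start and so silence nearby genes. The long arm of zebrafish chromosome 4 is known as an unusual piece of the genome. It is rich in heterochromatin and repeated sequence, replicates late, and carries large families of zinc finger genes and of immune receptor genes with a NACHT domain, along with many copies of 5S ribosomal and small nuclear RNA genes. In wild strains of zebrafish its end is linked to sex. Repeated sequence also makes short reads hard to place. The sources used here do not say how the authors treated such reads, and the part of this in any value below was not tested.

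Summits were far sparser in the far part than on the other chromosomes beyond 30 Mb. It held 37.1 summits per Mb over 48.0 Mb (95% exact Poisson interval 35.4 to 38.9, for counting error only and too narrow for summits that cluster). The 24 other chromosomes held 120.4 ± 10.97 summits per Mb beyond 30 Mb (SD, n = 24 chromosomes), from 98.2 on chromosome 8 to 137 on chromosome 23. Their stretches beyond 30 Mb were shorter, 7.49 to 44.3 Mb long, and each counted equally in the mean. Chromosome 4 up to 30 Mb held 175 summits per Mb. The density of the far part was thus 0.308 of the mean of the other chromosomes and 0.212 of the near part of its own chromosome, and all 24 other chromosomes were above it. Counted as peak regions the picture was alike, with 26.3 regions per Mb against 81.9 ± 6.68 on the other chromosomes.

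The fall in density began before the 30 Mb boundary and was steep. The window from 25 to 26 Mb held 250 summits and the next one, from 26 to 27 Mb, held 51. In steps of 0.5 Mb the count went from 107 between 25.5 and 26 Mb to 44 and then to 7 between 26.5 and 27 Mb. It rose again to 83 between 28 and 28.5 Mb before it settled. The window just inside the boundary held 23 summits and the one just outside it 40.

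**Figure D1:**
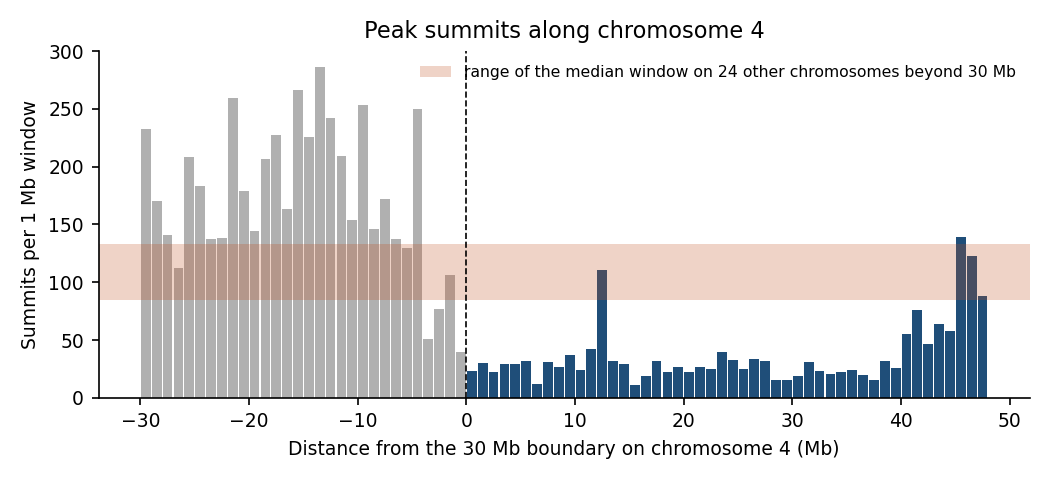
Number of summits in each full 1 Mb window of chromosome 4 (vertical axis) by distance from the 30 Mb boundary (horizontal axis, Mb). Grey bars are the near part and blue bars the far part; the band spans the median windows of the 24 other chromosomes beyond 30 Mb, 84.5 to 133 summits. The blue bars stay under the band except for the window with 111 summits and the windows near the far end.

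Beyond 30 Mb the density stayed low and level for 40 Mb and then climbed in steps. The 48 full windows of 1 Mb held from 11 to 139 summits, with a median of 29 and quartiles of 22 and 34.8. Of these, 40 held under 50 summits. On the whole of the 24 other chromosomes, 63 of 1258 windows were that sparse, or 5.01%, and they were scattered. The longest run of neighbouring windows under 50 was 3 elsewhere, on chromosome 7, and 2 when only the parts beyond 30 Mb were counted. In the far part 12 such windows followed each other from 30 to 42 Mb and 27 from 43 to 70 Mb, parted by a single dense window.

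Within the first 40 Mb the level hardly drifted. The far part held 27.2 summits per Mb from 30 to 40 Mb and 34.9 from 40 to 50 Mb. It held 26.8 from 50 to 60 Mb and 23.3 from 60 to 70 Mb. The value from 40 to 50 Mb was raised by the single dense window from 42 to 43 Mb, with 111 summits. The 5 sparsest windows all lay within these 40 Mb. The window from 45 to 46 Mb held 11 summits and that from 36 to 37 Mb held 12. The windows from 58 to 59, 59 to 60 and 67 to 68 Mb each held 15.

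From 70 Mb the density rose. It was 60 per Mb from 70 to 75 Mb, with windows of 47 to 76 summits, and 117 per Mb from 75 to 78 Mb, with windows of 139, 123 and 88 summits. The last 3 full windows thus lay at the level of other chromosomes. The short piece after 78 Mb, 35.95 kb up to the last summit, held 10 summits in 2 regions. Of the 5 densest windows, 4 lay past 70 Mb, at 75 to 76, 76 to 77, 77 to 78 and 71 to 72 Mb (76 summits). The remaining dense window, from 42 to 43 Mb with 111 summits, stood alone among sparse neighbours of 42 and 32.

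Low density was found among weak and moderately strong summits alike, and the very strongest summits were the exception. Summits scoring under 5 had a density of 12.03 per Mb against 42.6 ± 3.51 on the other chromosomes (SD, n = 24), a ratio of 0.282. The ratio was 0.325 for scores of 5 to 20, where the far part had 17.03 per Mb. It was 0.306 for scores of 20 to 100, with 7.06 per Mb. For scores of 100 or more it was 0.409, with 0.978 per Mb against 2.39 ± 0.462. In each of these 4 bands the far part lay below all 24 other chromosomes. For scores of 300 or more, a limit not among the planned ones of 20, 100 and 1000, the order turned over. The far part held 10 such summits, or 0.208 per Mb against 0.0755 ± 0.0754, and 22 of the 24 other chromosomes were below it. Chromosome 10, the highest, held 0.325 per Mb with 5 such summits in a far shorter stretch. The near part of chromosome 4 held none among 5246 summits, and its highest score was 254. Among the 10 summits of the far part were the strong pair described below and 2 summits of the same region. No alternative was run for the limit of 300.

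**Figure D2:**
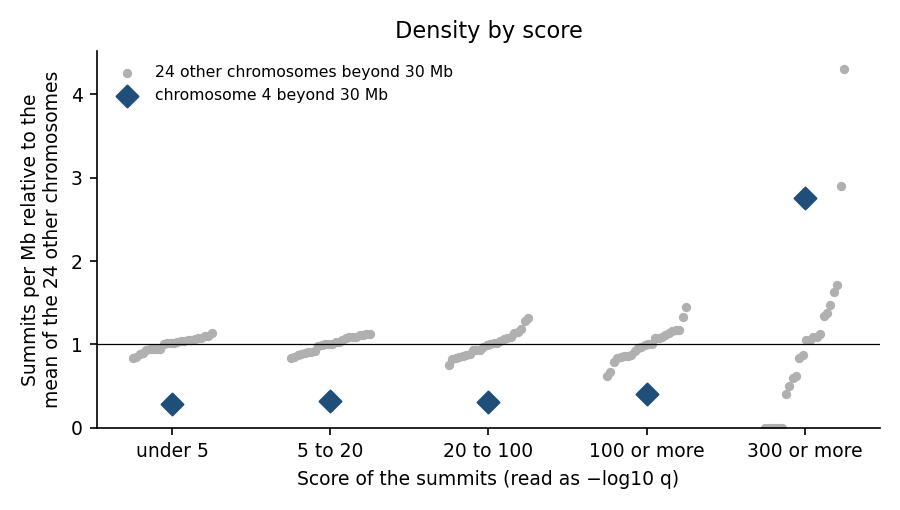
Summits per Mb beyond 30 Mb in bands of score, relative to the mean of the 24 other chromosomes (vertical axis). Grey points are the other chromosomes, spread sideways only to be seen, and blue diamonds chromosome 4; the last band is part of the band before it. The diamonds lie between 0.282 and 0.409 up to the band of 100 or more and at 2.76 in the band of 300 or more.

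Taken per summit, scores in the far part were shifted upwards by a small amount. The median score was 8.11 (95% interval from order statistics 7.71 to 8.65), with quartiles of 3.90 and 17.6. The interval treats summits as independent and is too narrow where they cluster. The medians of the other chromosomes averaged 7.37 ± 0.359 (SD, n = 24, range 6.71 to 8.39), and 23 of 24 were lower. Only chromosome 25 was higher. With a single summit per region, the strongest, the median was 9.65 (9.003 to 10.6) against 8.04 ± 0.373, above all 24 other chromosomes, whose highest was 8.98. The shift was not present once the weakest summits were left out. Among summits scoring at least 5, the median of 12.8 lay inside the range of the other chromosomes, 11.5 to 14.1, and 10 of 24 were higher. A score exists only for summits that passed the threshold of the list, so nothing can be said of weaker enrichment.

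The share of strong summits was close to that of the whole list at scores of 20 or 100 and larger at 300. A score of 20 or more was reached by 386 of 1782 summits, 21.7% (95% Clopper-Pearson interval 19.8 to 23.6, counting error only), against 21.1% in the whole list. A score of 100 or more was reached by 47 summits, 2.64% (1.94 to 3.49), against 2.02% in the whole list, which lies inside the interval. The other chromosomes ranged from 1.502% to 2.56% beyond 30 Mb, with chromosome 3 highest. That order was not stable, since with 1 summit per region (3.01%) 3 other chromosomes were above the far part, and 1 to 3 were with the boundary at 25, 35 or 40 Mb. A score of 300 or more was reached by 0.561% (0.269 to 1.03) against 0.0793% in the whole list. On the other chromosomes together, beyond 30 Mb, the share was 0.0526%. A single summit, 0.0561%, scored 1000 or more, where the whole list had 0.011%. With 1 summit such a share describes that summit only.

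The strong summits were scattered over the whole stretch rather than gathered in the dense end. The first 40 Mb held 40 of the 47 summits scoring 100 or more, the next 5 Mb held 5, and the dense last windows from 75 to 78 Mb held 2. Per Mb this was 1 from 30 to 70 Mb and 0.667 from 75 to 78 Mb, while the density of all summits rose from 28.1 to 117 per Mb. As a share of summits it was 3.57% from 30 to 70 Mb and 0.571% from 75 to 78 Mb. The median score moved the same way, from 8.39 (7.82 to 9.18) to 7.26 (6.30 to 8.04), with intervals that overlap. Across the 48 windows the count of summits and their median score had a Spearman rho of −0.0602 and a Pearson r of −0.185, which describes neighbouring windows of 1 list. The window medians ranged from 3.74 to 23.9, from as few as 11 summits. Each of the 48 windows held a summit scoring 20 or more, and 21 (43.75%) held none scoring 100 or more. On the other chromosomes beyond 30 Mb, windows without such a summit made up 18.6% ± 8.88 (SD, n = 24, range 0% to 34.6%). In the near part of chromosome 4 they made up 16.7%. Windows without a strong summit become more common where such summits are sparser, so this restates their low density.

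**Figure D3:**
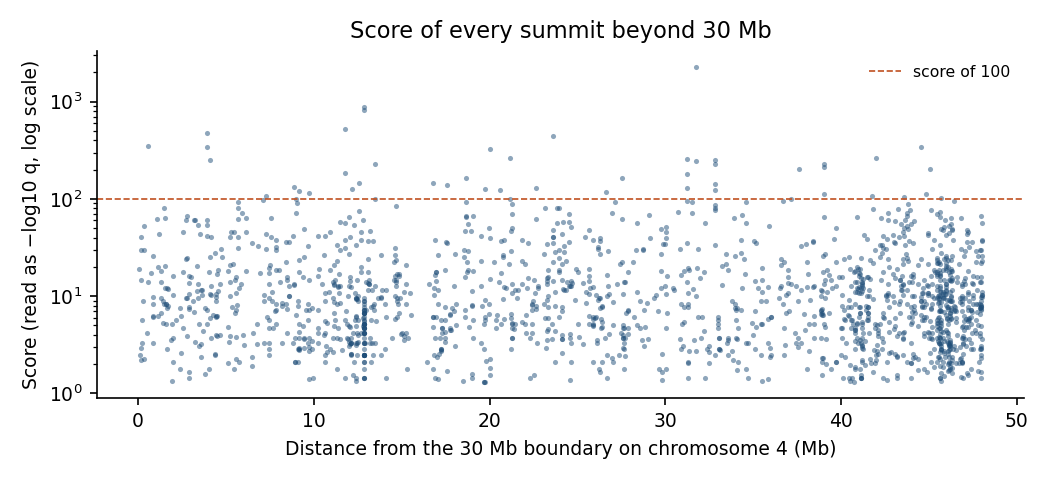
Score of each of the 1782 summits (vertical axis, log scale) by distance from the 30 Mb boundary (horizontal axis, Mb). The dashed line marks a score of 100, reached by 47 summits along the whole stretch; the points thicken past 40 Mb from the boundary, and only 2 of the strong ones lie in the last 3 full windows.

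The strongest summit stood at position 61736882 with a score of 2298, the seventh highest of the list. It was the middle summit of 3. Its neighbours at 61735531 and 61738126 scored 244 and 10.03, and the nearest other region was 25.4 kb away with a score of only 2.71. The next 2 in rank formed a pair, described below, at 42877104 (877) and 42832125 (812). The fourth, at 41758853, scored 526 and had a second strong summit (183) within 0.786 kb. Its 4 neighbours in other regions within 50 kb had a median of 34.6, whereas the neighbours of the first 3 were mostly weak.

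The other members of the 10 highest were single summits or close groups. A region in the window from 33 to 34 Mb held the fifth and the ninth, 479 at position 33951157 and 340 at 33950588, which lay 0.569 kb apart, and the 5 summits of other regions within 50 kb had a median of 41.4. The sixth, at 53616074, scored 449 in a region of 5 summits. The seventh, at 30592164 (348), was the only summit of its region, and within 50 kb of it the sole summit of another region scored 14.1. The eighth, at 74546658 (342), was also alone in its region, with 5 neighbours within 50 kb and a median of 9.01. The tenth, at 50022743, scored 323, and its 4 neighbours within 50 kb had a median of 2.06. No gene is tied to these positions, because no GRCz11 annotation was used here.

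Joining summits that scored 100 or more and lay within 50 kb of each other gave 36 loci, and 29 of them held a single such summit. Another 4 held a pair and 3 held more. The largest locus had 4, at 62830016 (226), 62830363 (122), 62831071 (252) and 62832373 (144), and all belonged to 1 region. That region had 8 summits over 3.07 kb, none under a score of 33.2. In the window from 61 to 62 Mb, 3 strong summits in 2 regions spanned 4.16 kb, with scores of 131 at 61211690, 258 at 61215279 and 182 at 61215853. In the window from 69 to 70 Mb, 3 strong summits lay within 0.952 kb, at 69008672 (112), 69008979 (231) and 69009624 (215). Neighbouring loci lay a median of 908 kb apart. The longest stretch without a strong summit was 4.32 Mb, from 62832373 to 67154970.

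The pair of strong summits at 42832125 and 42877104 enclosed a row of weak summits, most of which shared a common phase. The pair lay 45.0 kb apart, with scores of 812 and 877. Between them stood 50 summits in 20 regions, with scores from 1.43 to 9.58 and a median of 4.67. Around them the summits were sparse, as elsewhere in the far part, whose median 100 kb window held 3. There were 4 summits in the 50 kb before the pair and 1 in the 50 kb after it. The pair and the row made up 46.8% of the 111 summits in the window from 42 to 43 Mb, and without them the window held 59. They also gave the densest 100 kb window of the far part, with 55 summits, ahead of one from 75.6 to 75.7 Mb with 44.

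Most weak summits of the row stood near a grid of 250 bp, although steps of about 500 bp were more common than steps of about 250 bp. Trial periods from 150 to 1500 bp were compared by the resultant length, which is 1 when all positions fall on the same phase of a period and near 0 when they are spread evenly. It was highest at 250 bp, at 0.814, and reached 0.616 at 500 bp, while its median over all periods was 0.0982. Of the 50 summits, 39 (78%) lay within 25 bp of the grid, where positions spread evenly would give 20.4%. Measured from the left strong summit, 32 had a remainder of 50 to 75 bp after division by 250, where an even spread would give 10%, and none had one of 125 to 225 bp. The period and these ranges were chosen on the same 50 summits, and the shares for an even spread make no allowance for that choice. The resultant of 0.814 is likewise the highest over all trial periods. Of the 49 distances between neighbouring summits, 15 were within 50 bp of 500 bp, 9 within 50 bp of 1000 bp and 5 within 50 bp of 250 bp. The distances themselves were uneven, from 167 to 3477 bp with a median of 543 bp.

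The same scan was run over all stretches of 50 kb with at least 25 summits on chromosomes 1 to 25. The 2 stretches that hold the row had the highest values of all 339, 0.843 from 25 summits and 0.734 from 30, both at 250 bp. Only 3 of the 339 lay in the far part, these 2 included. The minimum of 25 summits thus left nearly all of the far part unscanned. The other 337 ranged from 0.297 to 0.613 with a median of 0.461, each at its own best period. Positions in the list as a whole shared no common phase at 250 bp, with a resultant of 0.00351 over all chromosomal summits. Local rows with phases of their own would cancel in that value, so it cannot show whether other rows exist. The row was picked after it was seen, so these values describe it and do not test it. What sequence lies between the strong pair was not analysed here.

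**Figure D4:**
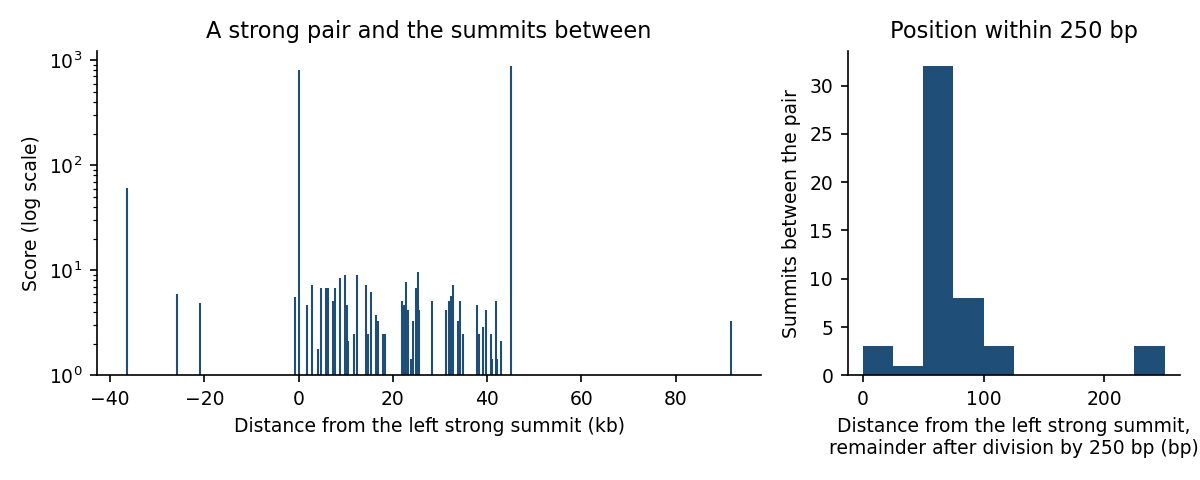
Left, score of the summits (vertical axis, log scale) by distance from the left summit of the strong pair (kb). Right, number of the 50 weak summits between the pair by the remainder of that distance after division by 250 bp; 32 of them fall in the bin from 50 to 75 bp.

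Gaps between peak regions were long and uneven in the far part. Fewer regions per Mb make gaps longer, so their length is not independent of the low density. With each region placed at its strongest summit, the median gap was 15.9 kb (quartiles 4.42 and 48.5 kb), against medians of 5.79 ± 0.466 kb on the other chromosomes beyond 30 Mb (SD, n = 24, range 4.73 to 6.73 kb). The upper quartile was 3.36 times the mean of the others and the lower quartile 1.62 times, so the short gaps differed less than the long ones. Gaps under 5 kb still made up 27.2% of 1261, against 45.6% ± 2.56. Gaps over 50 kb made up 24.5% against 3.94% ± 0.840, and gaps over 100 kb made up 9.99% against 0.657% ± 0.303. No other chromosome reached the far part in either.

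Long gaps took up a large part of the sequence. The 126 gaps over 100 kb summed to 22.2 Mb, or 46.3% of the span covered by the regions of the far part. On the other chromosomes the same share was 7.26% ± 3.06 (SD, n = 24, range 1.56% to 12.9%). Of the 126, 10 began past 70 Mb, where the longest was 195 kb. Gaps over 300 kb numbered 11 in the far part and 10 among 104961 gaps on the whole of the 24 other chromosomes.

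The longest gap ran from 45543850 to 46462489, 919 kb, and no gap on the other chromosomes was longer. It lay between summits scoring 6.36 and 2.12. The next were 465 kb from 66030488 to 66495572 and 463 kb from 49073231 to 49535757, and 3 gaps on the other chromosomes exceeded either. The fourth to the seventh were 394 kb from 48093678, 375 kb from 68489082, 365 kb from 34764924 and 356 kb from 44098585. The remaining 3 of the 10 longest were 343 kb from 52747343, 337 kb from 36163060 and 323 kb from 60109715. All 10 lay between 34 and 70 Mb, and 4 of them between 44 and 50 Mb. Some were bounded by higher scores, such as the gap from 49073231 (66.0) to 49535757 (41.4), and others by low ones. Stretches of the assembly without resolved bases would also appear as gaps, and their part was not tested.

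**Figure D5:**
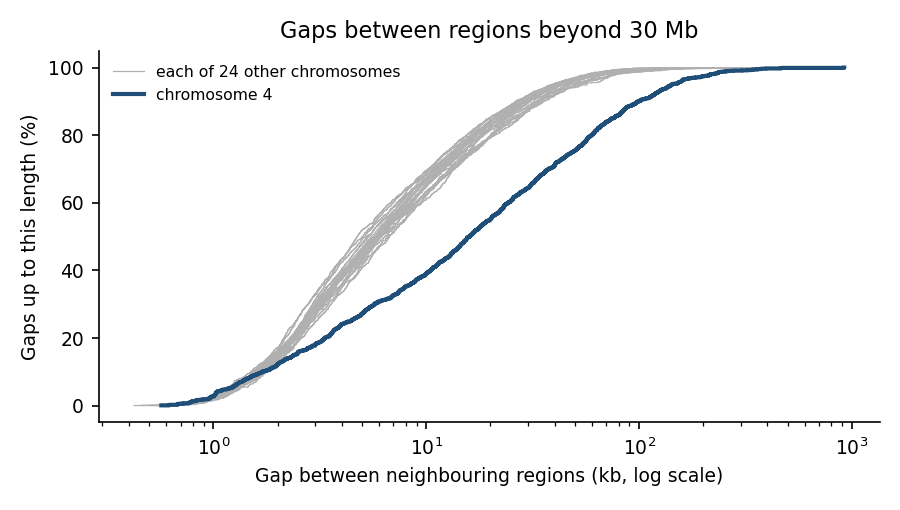
Share of gaps between neighbouring regions beyond 30 Mb (vertical axis, %) up to a given length (horizontal axis, kb, log scale). The line of chromosome 4 runs to the right of each of the 24 grey lines from about the lower quartile upwards, with medians of 15.9 kb and 4.73 to 6.73 kb.

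Empty stretches and lone regions were common, and these measures too are not independent of the low density. Of 480 full windows of 100 kb, 93 held no summit, 19.4% (95% Clopper-Pearson interval 15.9 to 23.2). On the whole of the 24 other chromosomes, 2.17% of such windows were empty. The highest share on another chromosome beyond 30 Mb was 5.35%, on chromosome 8. The longest run of empty windows was 8, inside the longest gap. From 30 to 70 Mb 22.5% were empty, from 70 to 75 Mb 6%, and from 75 to 78 Mb 0 of 30. Of the 1262 regions, 98 (7.77%) had no other region within 50 kb on either side, against 0.436% ± 0.186 on the other chromosomes.

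The share of regions with several summits resembled that of other chromosomes, but regions of 5 or more made up a smaller share and the spacing inside regions was tighter. Several summits were found in 337 of 1262 regions, 26.7% (24.3 to 29.2), against 27.6% ± 1.66. Regions of 5 or more made up 1.19% (15 regions) against 2.12% on the other chromosomes together. Regions of exactly 4 went the other way, 2.54% against 2.05%, as did the 2 regions of 8, 0.158% against 0.133%. No region had 10 or more, where 76 of 45260 regions elsewhere beyond 30 Mb did, or 0.168%. At so small a share, finding none among 1262 regions says little. The largest region had 8 summits. On the other chromosomes beyond 30 Mb the largest had a mean of 17.6 summits, from 7 on chromosome 23 to 60 on chromosome 1. Only chromosome 23 was below the far part. The distance from a summit to the next in its region had a median of 480.5 bp (quartiles 337 and 619 bp, 520 distances, 95% interval of the median 456 to 498 bp). The interval treats the distances as independent, although they come from 337 regions. The medians of the other chromosomes averaged 564 ± 17.02 bp (range 525 to 597 bp), and all 24 were longer. The near part of chromosome 4 had a median of 571 bp. The tighter spacing was present from 30 to 70 Mb (457 bp), and the value was 490 bp from 70 to 75 Mb and 520 bp from 75 to 78 Mb. Without the row on the 250 bp grid it was 474 bp. This difference was not used to choose the stretch, but it was noticed in the data and is given without a test.

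The regions with the most summits were of different kinds. The 2 regions of 8 were the strong one at 62829300 to 62832373 and one near the last summit of the chromosome, from 78021708 to 78026111, with scores of 3.65 to 56.1. A region of 7, from 42839428 to 42842681, and one of 6, from 42853960 to 42855978, belonged to the row on the 250 bp grid, and neither reached a score of 10. The other 2 regions of 6 lay at 75604444 to 75606571 and 75968019 to 75971225, in the dense end, with highest scores of 16.6 and 21.7. The strongest summit of a region had a median score of 8.92 where it was the only one, 10.1 in regions of 2, 15.8 in regions of 3 and 21.2 in larger regions, a maximum that rises with the number of summits by construction. The median summit of a region gave 8.92, 7.82, 7.67 and 8.40 for the same classes, with no such rise.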

How the data were processed

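Chromatin immunoprecipitation with an antibody against GFP (2 libraries) and input (2 libraries) was sequenced from whole embryos. Per the submitters' processing notes, the tools were MACS2 2.2.6 (a peak caller), BWA 0.1.17 (an aligner) and deepTools 3.5.1, on GRCz11, with no settings; the sources used here do not give pooling, the control, peak thresholds or the treatment of reads with several matches. The authors deposited 1 headerless list of 1 bp summits with a −log10 score, whose minimum lies just above 1.301, the −log10 of 0.05, so it is read as a −log10 q-value; the same minimum could come from p-values. Letters after a peak number mark summits of 1 region. The number of other per-sample columns was 0.

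Densities run from the boundary to the last summit of each chromosome, since no GRCz11 sequence or annotation was used here; unresolved bases could not be left out, and no sequence is shown. Windows, gaps, score shares and chains were computed with Python 3.11.15, numpy 2.4.6, pandas 2.3.3 and scipy 1.17.1, and checked on simulated positions; figures used matplotlib 3.10.9. Intervals (95%) cover counting error only, treat summits or distances as independent, and are too narrow where summits cluster. No test between parts was run. Features named by rule were the 10 highest summits, the 10 longest gaps, the 5 densest and 5 sparsest windows, the 5 regions with the most summits (with ties, 6) and loci with at least 3 summits scoring 100 or more; the row on a 250 bp grid and the summits within regions were added after their values were seen. The score limit of 300 was not among the planned limits of 20, 100 and 1000 for strong summits. The members and lists were chosen with earlier results of these data known.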

Additional observations from a re-analysis of the deposited data

How the results depend on the processing

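No paired analysis was possible because the list holds no values per library. Of 60 alternatives over 11 results, 34 stayed within the counting interval of the reported value and 26 left it. For the loci of strong summits a fixed factor took the place of an interval. Some moves were built in, since a score minimum or 1 summit per region can only lower the density, so the tally does not measure stability. The direction against the other chromosomes held in the alternatives for density, gaps, empty windows and spacing. The density itself was 25.1 per Mb for scores of at least 5, 8.04 for at least 20, 0.978 for at least 100, 26.3 with 1 summit per region, 31.1 with summits closer than 500 bp joined, and 43.5 and 39.7 with the boundary at 25 and 40 Mb. Relative to the near part it was 0.224, 0.238 and 0.345 for those score minimums, 0.227 with 1 summit per region, and 0.230, 0.249 and 0.288 with the boundary at 25, 35 and 40 Mb. Relative to the other chromosomes it was 0.409 for scores of at least 100, and 0.350, 0.331 and 0.358 at those boundaries (22 other chromosomes reach past 40 Mb far enough). The median score was 9.65 with 1 summit per region and 12.8 for scores of at least 5. The share of summits scoring 100 or more stayed within its interval in all 6 alternatives, but 3 of the other chromosomes lay above the far part with 1 summit per region (3.01%), and 1 to 3 did at other boundaries; 1 did without the 50 kb around summits scoring 1000 or more (2.53%). The median gap was 21.9 kb for scores of at least 5. Empty windows were 41.6% at 50 kb and 7.5% at 200 kb. Regions with several summits were 19.0% for scores of at least 5, against 18.8% to 28.0% elsewhere. Spacing within regions was 511 bp for scores of at least 5 (elsewhere 569 to 667 bp) and 503 bp with the boundary at 25 Mb. Leaving out the row on the 250 bp grid, all alternatives for the spacing within regions, and joining strong summits within 10 kb (37 loci in place of 36) were chosen after seeing the data; the others were planned. The unknown depth limits what a missing summit means.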

Other observations

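Just before the stretch, from 26 to 30 Mb, chromosome 4 held 274 summits, or 68.5 per Mb, against 191 per Mb from 0 to 26 Mb. The 4 windows there ranged from 40 to 106 summits, while the 26 windows before them ranged from 112 to 286. Of the 40 windows of 100 kb from 26 to 30 Mb, 7.5% were empty, and none of the 260 before them was. The median gap between regions was 6.84 kb from 26 to 30 Mb and 4.31 kb before it. The median score was 7.80 from 26 to 30 Mb (6.23 to 8.98) and 7.26 before it (6.79 to 7.31). The wide first interval covers both values, so it cannot show whether scores changed. The stretch from 26 to 30 Mb held 4 summits scoring 100 or more, 1.46% of its 274, against 1.63% before it and 2.02% in the whole list. None scored 300 or more, in this stretch or before it. With a share of 0.0793% in the whole list, finding none among 274 says little. Adjacent summits of a region were 569 bp apart there, against 571 bp before it and 457 bp from 30 to 70 Mb, values compared with no test.

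Outside the far part, the highest resultant of the dense 50 kb stretches was at the start of chromosome 14, 0.613 at a period of 563 bp over 28 summits. It was the top of the 337 values from stretches without the row, each at its own best period. Whether that stretch is regular was not tested. In the dense end of chromosome 4, the stretch from 75600001 to 75650000 held 25 summits and reached 0.483 at 181 bp, near the median of 0.461 for such stretches.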
